A study of Mus musculus with 22 samples.

Results

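This account covers the matrix metalloproteinases Mmp2, Mmp3, Mmp9, Mmp11, Mmp13 and Mmp14 and their tissue inhibitors Timp1, Timp2 and Timp3 in the back skin of growing mice. The members are every probe set that the platform annotation pairs with exactly 1 of these 9 genes, which gave 14 of the 12488 probe sets on the array, for 9 of its 8252 annotated genes. Total RNA of whole back skin from CB6F1 mice was hybridised to 22 single-colour oligonucleotide arrays, 1 array per sample. The DN-CLIM mice carried the K14-DN-Clim transgene, in which the keratin 14 promoter, active in basal keratinocytes of the epidermis and hair follicle, drives a dominant-negative CLIM. CLIM proteins, encoded by Ldb1 and Ldb2, are cofactors of LIM domain transcription factors. The controls were wild-type littermates of the same strain, and the labels name no treatment. Each genotype had 5 arrays from postnatal day 6 (P6), 3 from day 14 (P14) and 3 from day 23 (P23). Per the series' design text, P6 and P14 fall in the first growth of the hair follicle and P23 in the first telogen, the resting phase.

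Matrix metalloproteinases (MMPs) are zinc-dependent enzymes that cut collagens, gelatin, elastin, fibronectin and proteoglycans. They are made as inactive proenzymes, become active when the propeptide is removed, and are held in check by the tissue inhibitors of metalloproteinases (TIMPs), which occupy the active site. In skin, fibroblasts, keratinocytes and immune cells make them, and they are known for roles in wound repair, in the regression of hair follicles and in the turnover of dermal collagen. Mmp2 and Mmp9 are the gelatinases. Mmp3 is stromelysin 1, which also activates other proMMPs, and Mmp11 is stromelysin 3. Mmp13 is a collagenase, and Mmp14 is the membrane-anchored enzyme that, together with Timp2, activates proMmp2.

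Mmp3 and Mmp13 lie in a run of 10 MMP genes on mouse chromosome 9, in the order Mmp13, Mmp12, Mmp1b, Mmp3, Mmp1a, Mmp10, Mmp8, Mmp27, Mmp20 and Mmp7 in the RefSeq table. The other members lie elsewhere: Mmp2 on chromosome 8, Mmp9 on 2, Mmp11 and Timp3 on 10, Mmp14 on 14, Timp1 on X and Timp2 on 11. Timp1 lies within Syn1 and Timp3 within Syn3, both synapsin genes. RefSeq promoters (GRCm38.p6) were found for 7 of the 9 members. The promoters of Mmp3 and Mmp13 and of the neighbouring macrophage elastase Mmp12 are shown because Mmp3 and Mmp12 rose at P23 and Mmp13 did not pass, and those of Timp2 and Timp3 because they also rose at P23. Each runs 5′ to 3′ from 150 bases before to 20 after the annotated start, with the AP-1 motif TGANTCA, the TATA box TATAAA and the GC box GGGCGG in capitals, searched on both strands.
Mmp3 (chr9:7445672-7445841, plus strand): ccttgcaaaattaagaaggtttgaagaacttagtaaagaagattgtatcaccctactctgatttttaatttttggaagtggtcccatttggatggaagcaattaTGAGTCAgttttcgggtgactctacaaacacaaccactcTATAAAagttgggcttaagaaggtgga
Mmp12 (chr9:7347224-7347393, plus strand): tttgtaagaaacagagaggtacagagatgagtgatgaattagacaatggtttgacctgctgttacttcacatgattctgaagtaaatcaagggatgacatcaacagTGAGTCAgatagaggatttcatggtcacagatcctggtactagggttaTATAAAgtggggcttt
Mmp13 (chr9:7272364-7272533, plus strand): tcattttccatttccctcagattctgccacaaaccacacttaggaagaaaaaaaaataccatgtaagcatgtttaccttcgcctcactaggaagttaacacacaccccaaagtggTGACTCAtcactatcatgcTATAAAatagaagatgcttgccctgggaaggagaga
Timp2 (chr11:118355392-118355561, minus strand): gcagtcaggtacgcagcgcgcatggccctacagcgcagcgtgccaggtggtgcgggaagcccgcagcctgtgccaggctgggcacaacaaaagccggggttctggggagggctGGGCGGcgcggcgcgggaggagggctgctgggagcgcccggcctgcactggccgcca
Timp3 (chr10:86300262-86300431, plus strand): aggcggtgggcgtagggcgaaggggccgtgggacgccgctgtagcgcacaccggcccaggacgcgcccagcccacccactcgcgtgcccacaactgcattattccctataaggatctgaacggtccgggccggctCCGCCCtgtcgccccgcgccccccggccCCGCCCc
In Mmp3 the AP-1 motif begins 46 bases before the start, in Mmp13 35 bases before it and in Mmp12 44 bases before it. Each of these 3 promoters also holds a TATAAA (the Mmp12 sequence is the second of its 2 annotated starts, and its TATAAA lies after the start). The window of the other Mmp12 start holds none of the 3 motifs. Among all 32851 promoters of this length, 4.74% hold the AP-1 motif and 8.1% the TATAAA. Neither motif was found in the promoters of Mmp11, Mmp14, Timp1, Timp2 or Timp3, each of which holds at least 1 GC box, a motif found in 30.3% of all promoters. The matches do not overlap each other. A match describes the letters of these windows only.

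The values are MAS5 signals on a linear scale, and log2 signals were compared. Array medians ran from 7.56 to 7.80 (log2), and an array's mean correlation with the others of its group ran from 0.933 to 0.972. The number of arrays and the signal limit the precision, and since no label says which mouse gave which array, p-values measure the spread between arrays, which may be technical. Above the signal filter lay 8 of 9 fibroblast, 8 of 8 hair matrix and shaft and 4 of 7 basal keratinocyte markers on the array. So did 7 of 8 skeletal muscle and 7 of 9 macrophage markers. That filter kept 6211 of 12422 probe sets, those with a mean log2 signal of at least 7.67, a signal of about 203. The basal keratinocyte count is near this share and tells little about the tissue. Of the members, 4 probe sets passed it: Mmp14 (160118_at), Timp1 (101464_at), Timp2 (93507_at) and Timp3 (160519_at). The other 10, among them all probe sets of Mmp2, Mmp3, Mmp9, Mmp11 and Mmp13, were dim, and their tests come from a fit of all 12422 probe sets other than array controls. Ldb1 and Ldb2, the CLIM genes, had mean log2 signals of 9.26 to 10.33 and 9.72 to 9.89 over the 6 groups. Neither passed between genotypes at any age (limma adjusted p from 0.534 to 0.999), and the sources used here do not say whether their probes lie in the transgene.

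Mmp3 gave low signals in P6 skin and far higher ones in telogen skin, in both genotypes. Its signals (98833_at) in wild type at P6 were 61.0, 68.7, 53.7, 64.8 and 40.7. At P14 they were 113, 108 and 155, and at P23 they were 1455, 1269 and 1669. Every wild-type array at P14 was thus above every one at P6, and every array at P23 was several times above those at P14. In DN-CLIM skin the P6 signals were 34.8, 50.9, 28.2, 47.7 and 21.0, the P14 signals 194, 126 and 156, and the P23 signals 1374, 1489.7 and 1586. The order of the ages was the same as in wild type, with no overlap between ages. From P14 to P23 the log2 signal rose by 3.56 (SE 0.29) in wild type, an 11.8-fold rise, and by 3.24 (SE 0.29) in DN-CLIM, 9.48-fold (limma adjusted p over all probe sets 2.65e-09 and 1.31e-08). From P6 to P14 it rose by 1.12 (SE 0.26) in wild type (limma adjusted p = 0.00709) and by 2.17 (SE 0.26) in DN-CLIM (limma adjusted p = 5.25e-06). These last changes are of dim signals: on the log2(signal + 50) scale they came to 0.70 and 1.27. The wild-type rise from P6 to P14 did not pass without WT P14 replicate 3 (0.95, limma adjusted p = 0.0625). In whole skin, more cells of a type and more RNA per cell cannot be told apart.

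**Figure D1:**
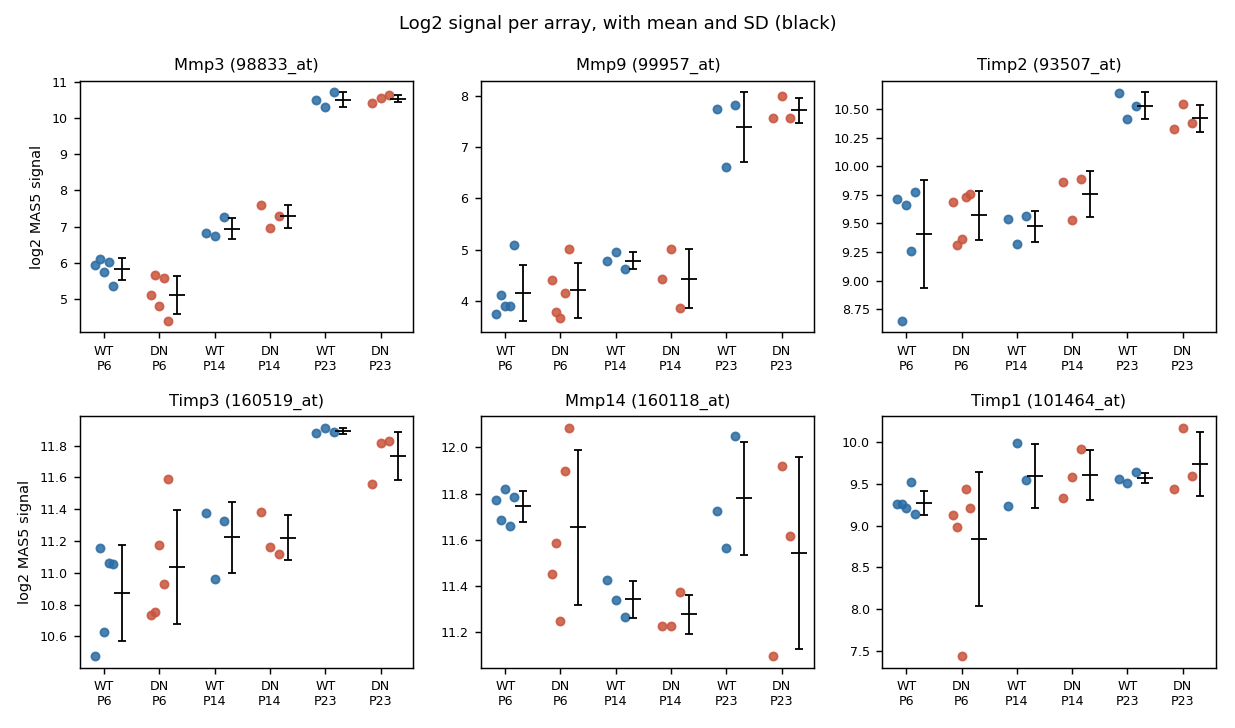
Log2 MAS5 signal (y axis, a separate scale in each panel) of 6 member probe sets on each array, by genotype and age (x axis). Each point is 1 array (blue, wild type, WT; red, DN-CLIM, DN), and the black bar beside each group is the mean with the SD. Mmp3 and Mmp9 at P23 sit above all arrays of the earlier ages, and Timp2 and Timp3 at P23 lie above the P14 arrays. The mean of Mmp14 is lowest at P14 in each genotype, with overlap between all ages in DN-CLIM, and no age change of Mmp14 passed.

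Mmp9, the gelatinase known from neutrophils, macrophages and osteoclasts, gave low signals at P6 and P14 and higher ones at P23. The brighter of its probe sets (99957_at) gave 13.5, 17.3, 15.0, 14.9 and 34.2 in wild type at P6, and 27.6, 31.0 and 24.7 at P14. At P23 it gave 214, 97.5 and 225. In DN-CLIM skin it gave 21.3, 13.9, 12.8, 17.8 and 32.5 at P6. Its P14 signals were 21.6, 32.2 and 14.5, and its P23 signals 189.9, 256 and 191. All 6 P23 arrays were above all 16 arrays of the younger ages, while P6 and P14 overlapped. From P14 to P23 the log2 signal rose by 2.60 (SE 0.46) in wild type and 3.28 (SE 0.46) in DN-CLIM (limma adjusted p over all probe sets 0.000104 and 6.44e-06). With the offset of 50 these rises were 1.50 and 1.85, since the starting signals are small. The change from P6 to P14 did not pass in either genotype (0.64 and 0.22, SE 0.41, limma adjusted p 0.396 and 0.761). The other Mmp9 probe set, 162369_f_at, whose suffix marks probes shared within a sequence family, did not show the rise: its P23 signals were 25.8, 8.41 and 20.3 in wild type and 36.5, 18.7 and 3.64 in DN-CLIM, within its range at P6 over both genotypes. The 2 probe sets of Mmp9 disagree, so the rise rests on 1 of them.

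Markers of several cell types moved between the same ages, and so did much of the array. Of all tested probe sets, 54.2% changed from P14 to P23 in wild type, and 27% were higher. Between P14 and P23 in wild type, 7 of 7 tested macrophage markers rose (median log2 change 1.29), 6 of 8 fibroblast markers rose (1.02), and 6 of 7 skeletal muscle markers rose and 1 fell (2.08). Of the other lists that could supply these enzymes, 2 of 2 osteoclast markers rose (1.04), 1 of 4 neutrophil markers rose and 1 fell, and 2 of 4 endothelial and 2 of 4 mast cell markers rose. Of the basal keratinocyte markers 3 of 4 rose (1.05), and of the adipocyte markers 2 of 3 (1.80). All 8 hair matrix and shaft markers fell (-6.62). The summed signal of the macrophage list ran from 3723 to 4430 on the wild-type P14 arrays and from 10816 to 11742 at P23, and that of the muscle list from 18933 to 22250 and from 44651 to 52514. The neutrophil list went from 2565 to 2921 at P14 to 1467 to 2082 at P23. No value in the table is 0. The neutrophil genes Mpo, Ltf, Ngp, Cxcr2 and S100a9 lay below the filter. The part of these cell types in the rises of Mmp3 and Mmp9 was not tested.

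Both of the inhibitors that are made broadly in mesenchyme, Timp2 and Timp3, rose from P14 to P23 in both genotypes, between 1.43-fold and 2.08-fold. Timp2 (93507_at) in wild type gave 839, 401, 811, 612 and 878 at P6. At P14 these became 746, 640.0 and 758, and at P23 1604, 1364 and 1481. In DN-CLIM skin it gave 825, 635, 659.9, 851 and 866 at P6. The P14 arrays read 934, 738 and 948 and the P23 arrays 1288, 1499 and 1333. The P23 arrays lay above all others of their genotype, and P6 and P14 overlapped, with 1 low wild-type array at P6. The rise from P14 to P23 was 1.05 on the log2 scale (SE 0.21, 2.08-fold, limma adjusted p = 0.000228) in wild type and 0.66 (SE 0.21, 1.58-fold, limma adjusted p = 0.0116) in DN-CLIM. The DN-CLIM call was lost without DN-CLIM P14 replicate 2 (0.54, limma adjusted p = 0.0610). The dim Timp2 probe sets did not follow: 160116_at changed by -0.78 (SE 0.77) and 161515_i_at by -0.01 (SE 0.52) in wild type, so the rise rests on 93507_at.

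Timp3, the inhibitor that stays bound to the extracellular matrix, was also higher at P23 than at P14. In wild type it (160519_at) gave 1423, 2279.6, 1579.8, 2136 and 2129.6 at P6. For P14 the signals were 2659, 1996 and 2569, and for P23 3771, 3852 and 3783. The 3 wild-type arrays at P23 lay close together and above all others. In DN-CLIM skin it gave 1707, 1724, 2308, 1952 and 3087 at P6. Its P14 signals were 2669, 2291 and 2221, and its P23 signals 3019, 3599 and 3638, where 1 P6 array reached the P23 range. From P14 to P23 the log2 signal rose by 0.67 (SE 0.19, 1.59-fold, limma adjusted p = 0.00560) in wild type and by 0.51 (SE 0.19, 1.43-fold, limma adjusted p = 0.0288) in DN-CLIM. The DN-CLIM call was lost without DN-CLIM P14 replicate 2 or 3 or without DN-CLIM P23 replicate 2 or 3 (limma adjusted p 0.0747, 0.0857, 0.0814 and 0.0868). From P6 to P14 Timp3 changed by 0.35 (SE 0.17, limma adjusted p = 0.166) in wild type and 0.18 (SE 0.17, limma adjusted p = 0.456) in DN-CLIM. Neither passed, but the wild-type change did under other settings. Among these were array weights (limma adjusted p = 0.0353) and P6 replicates 1 to 3 only (limma adjusted p = 0.0358). From P6 to P23 Timp3 rose by 1.02 (SE 0.17) and 0.70 (SE 0.17) in the 2 genotypes (limma adjusted p 3.45e-05 and 0.00165).

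Timp1, the secreted inhibitor that is induced in inflamed and wounded tissue, had no age change past the threshold in wild type in the fit of all groups. Its signals (101464_at) were 611, 609, 592, 731 and 562 at P6. At P14 these became 601, 1014 and 749, and at P23 750.4, 729 and 797, and the P14 group overlapped both others. In DN-CLIM skin they were 561, 506, 174, 689.7 and 593 at P6. The P14 arrays read 641, 763 and 964 and the P23 arrays 695, 1147 and 772. DN-CLIM P6 replicate 3 stood well below the other 4 arrays of its group, and all 3 P23 arrays lay above the P6 group. The rise from P6 to P23 was 0.89 (SE 0.30, 1.86-fold, limma adjusted p = 0.0147) in DN-CLIM and 0.29 (SE 0.30, limma adjusted p = 0.424) in wild type. The low array enlarges the DN-CLIM rise, since it pulls the mean log2 signal of DN-CLIM at P6 (8.84) below the median (9.13). The difference between the genotypes in the change from P6 to P23 was 0.60 (SE 0.42, limma adjusted p = 0.993) and did not pass. The DN-CLIM rise lost its call without DN-CLIM P23 replicate 2 (0.68, limma adjusted p = 0.103), with only the groups compared (limma adjusted p = 0.0813, where the wild-type change of 0.29 passed at 0.0465) and with P6 replicates 4 and 5 only (0.41, limma adjusted p = 0.161). The r-type probe set of Timp1, 162107_r_at, was dim, with signals of 1.19 to 44.7.

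Mmp14, the membrane-anchored activator of proMmp2, had bright signals at every age, and its group mean was lowest at P14 in each genotype. In wild type it (160118_at) gave 3499, 3296, 3609.9, 3233 and 3531 at P6. For P14 the signals were 2749.9, 2593 and 2461, and for P23 3383, 3031 and 4232. Each wild-type array at P14 lay below each one at P6 and P23. In DN-CLIM skin it gave 2799.6, 3079, 2434, 3812 and 4341 at P6. Its P14 signals were 2401, 2402 and 2656, and its P23 signals 2190.1, 3869.8 and 3142, with overlap between all ages. The difference of P14 from P6 was -0.40 (SE 0.16, limma adjusted p = 0.0907) in wild type and -0.38 (SE 0.16, limma adjusted p = 0.0957) in DN-CLIM, and that of P23 from P14 was 0.44 (SE 0.18, limma adjusted p = 0.0505) in wild type and 0.27 (SE 0.18, limma adjusted p = 0.231) in DN-CLIM. None of these passed, and each passed under at least 1 other setting. For P23 against P14 in wild type these included the log2(signal + 50) scale (limma adjusted p = 0.0492) and quantile normalization (limma adjusted p = 0.0185), and in DN-CLIM leaving out DN-CLIM P23 replicate 1 (limma adjusted p = 0.0298). For P14 against P6, lower at P14, they were only the groups compared in wild type (limma adjusted p = 0.00328), and in DN-CLIM P6 replicates 4 and 5 only (limma adjusted p = 0.0127) and leaving out DN-CLIM P6 replicate 3 (limma adjusted p = 0.0324).

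The remaining enzymes gave dim signals without a shared course. Mmp11 (100016_at), known from stromal cells of remodelling tissue, gave 94.3, 141, 136, 199 and 166 in wild type at P6. It gave 145, 71.5 and 65.2 there at P14 and 93.7, 139.7 and 90.1 at P23. The DN-CLIM signals were 103, 187, 125, 133 and 101 at P6, followed by 93.5, 167 and 139.8 at P14 and by 168, 247 and 131 at P23. All groups overlapped with at least 1 neighbouring age, and no age change of Mmp11 passed. Mmp13 (100484_at) ranged from 2.78 to 58.2 over all arrays. In DN-CLIM skin its P6 signals were 28.5, 7.49, 15.1, 16.0 and 2.78 and its P14 signals 35.3, 54.1 and 38.8, a rise of 1.97 (SE 0.65, limma adjusted p over all probe sets 0.0438). Timp2 160116_at rose there too, by 2.13 (SE 0.69, limma adjusted p over all probe sets 0.0397). Both calls are of low signals, and each was lost under several settings, for Mmp13 without DN-CLIM P14 replicate 2 (limma adjusted p = 0.154) and for Timp2 160116_at without DN-CLIM P14 replicate 3 (limma adjusted p = 0.163). On the log2(signal + 50) scale the rises were 0.54 for Mmp13 and 0.48 for Timp2 160116_at. Both lost the call after quantile normalization too (0.108 and 0.0827). The Mmp2 probe sets ranged from 12.2 to 123 (161509_at) and from 10.1 to 88.9 (95663_at), with no age change past the threshold. Skin fibroblasts are known to make Mmp2, and without detection calls these dim values do not show whether the probe sets measured it.

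**Figure D2:**
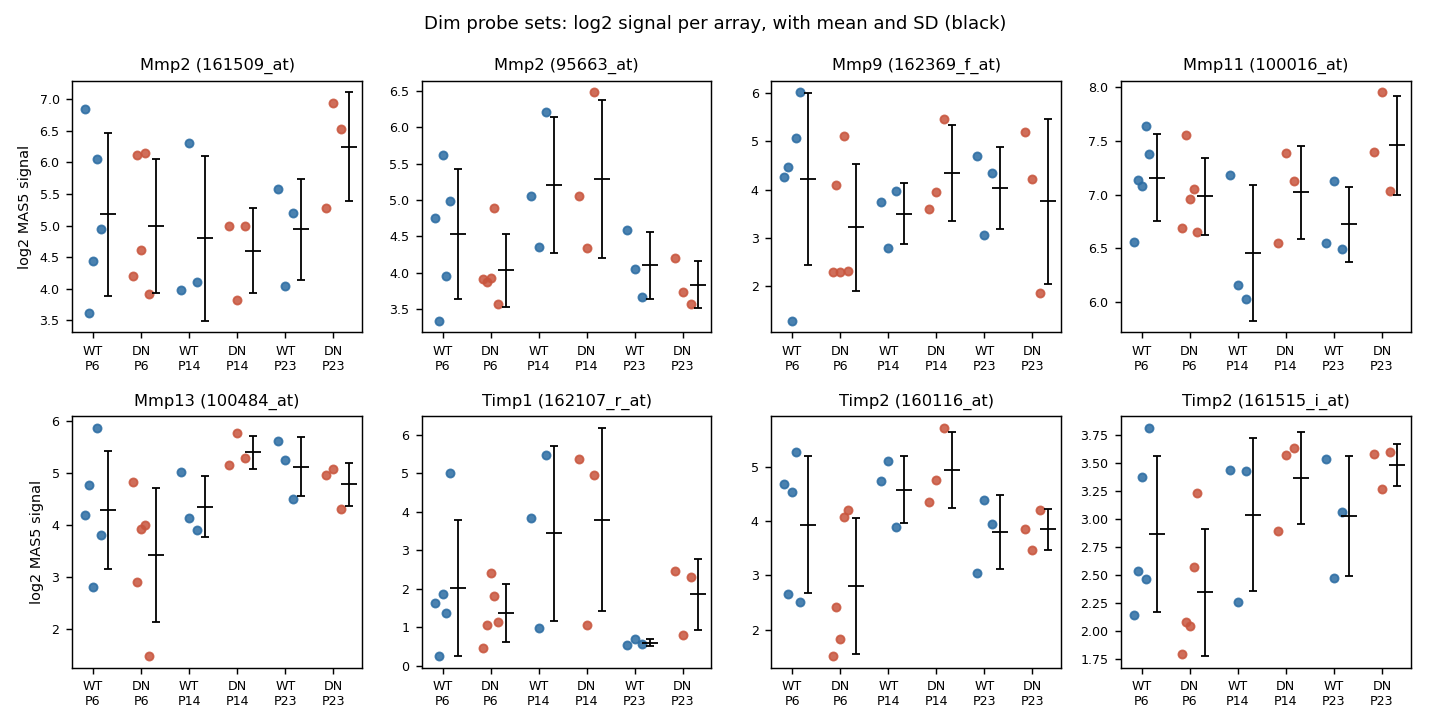
Log2 MAS5 signal (y axis, a separate scale in each panel) of the 8 other dim probe sets on each array, by genotype and age (x axis). Points are arrays (blue, wild type; red, DN-CLIM) and black bars the mean and SD. Groups overlap in most panels, and Mmp13 in DN-CLIM skin is higher at P14 than at P6.

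All changes with age past the threshold in the members were rises. Of the 4 probe sets above the filter, 0 passed from P6 to P14 in either genotype, where 20.8% of all 6211 tested changed in wild type and 26.8% in DN-CLIM, 9.43% and 12.1% upward. At an unadjusted p under 0.05 there were 1 of 4 in wild type (Mmp14, lower) and 2 of 4 in DN-CLIM (Mmp14, lower, and Timp1, higher), beside 2032 and 2399 of all 6211. From P14 to P23, 2 of 4 rose in each genotype (Timp2 and Timp3), where 54.2% of all tested changed in wild type and 54.3% in DN-CLIM, 27% and 27.1% upward. From P6 to P23, 2 of 4 rose in wild type and 3 of 4 in DN-CLIM, with Timp1 as the third, against 54% and 54.8% changed and 25.7% and 26.7% higher. The median log2 change of the 4 from P14 to P23 was 0.55 in wild type and 0.39 in DN-CLIM, and that of all tested was 0.00 in both. In the fit of all 12422 probe sets the members past the threshold were 1, 4 and 4 of 14 in wild type for the same 3 steps and 3, 4 and 5 of 14 in DN-CLIM, all higher. The shares of all probe sets that were higher were 4.53%, 18.5% and 17.9% in wild type and 7.5%, 18.1% and 19% in DN-CLIM.

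**Figure D3:**
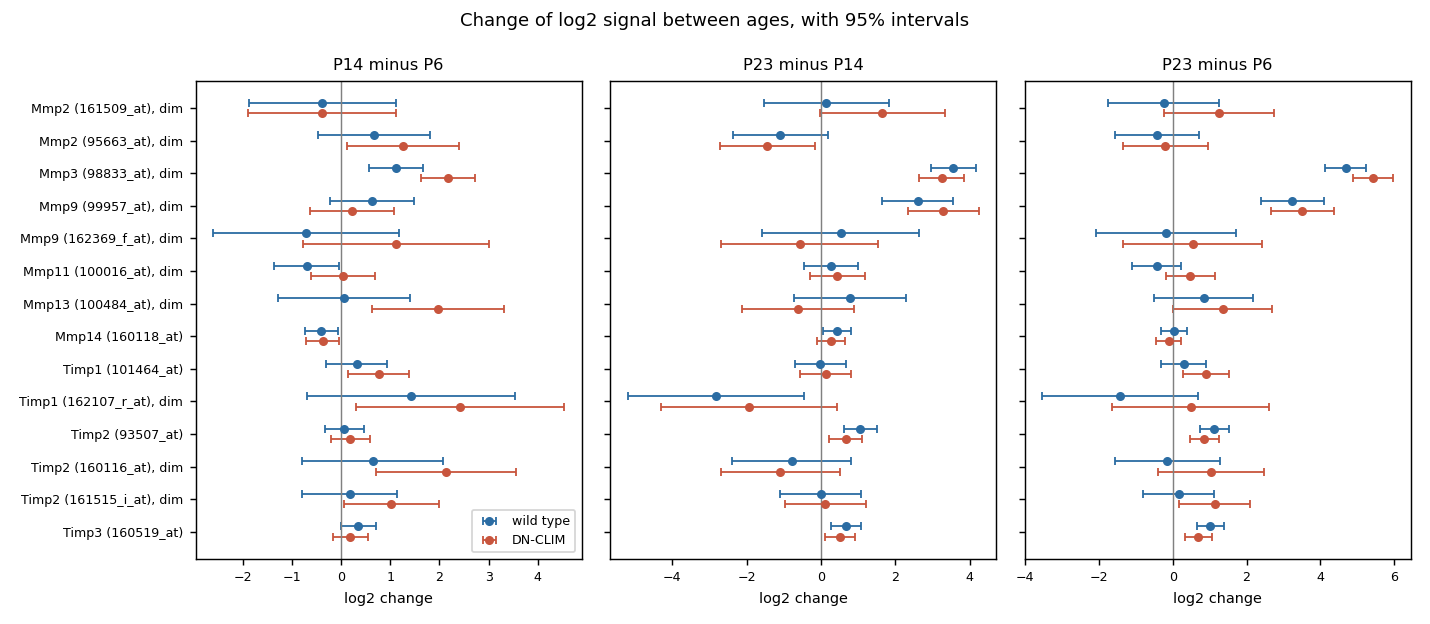
Change of log2 signal between ages (x axis) for the 14 member probe sets (y axis) in wild type (blue) and DN-CLIM (red), with 95% intervals from limma. Probe sets below the signal filter are marked dim. Mmp3 and Mmp9 (99957_at) at P23 stand clear of 0 in both genotypes, Timp2 (93507_at) and Timp3 lie above it by about 1 or less, and most dim probe sets have intervals across it.

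The comparison of DN-CLIM with wild-type skin asks whether the dominant-negative transgene altered these genes, and no member passed it. At each of the 3 ages in turn and averaged over them, 0 of the 4 tested probe sets and 0 of all 14 passed with limma, where 0.0322%, 0.0644%, 0.161% and 0.177% of all tested probe sets did (0.0403%, 0.105%, 0.0966% and 0.129% in the fit of all probe sets). At an unadjusted p under 0.05 there were 0 of 4 at each age and averaged, and of the 14 there was 1 at P6 and 0 in the others. Of all probe sets, 508 of 6211 and 931 of 12422 had such a p at P6. At P14, at P23 and averaged, 389, 284 and 436 of 6211 did, and 832, 451 and 719 of 12422. The 1 member at P6 was Mmp3, lower in DN-CLIM by a log2 difference of -0.71 (SE 0.23, limma adjusted p over all probe sets 0.468), with signals of 21.0 to 50.9 against 40.7 to 68.7 in wild type. The difference came to -0.32 on the log2(signal + 50) scale. At P14 and P23 Mmp3 differed by 0.34 (SE 0.29) and 0.02 (SE 0.29), and the change of its genotype difference from P6 to P14 was 1.05 (SE 0.37, limma adjusted p over all probe sets 0.614). For the 3 differences between ages, 0 of 4 and 0 of 14 passed, where 1, 0 and 1 of 6211 did (0.0161%, 0% and 0.0161%, or 0.00805%, 0% and 0% of all 12422). The members with an unadjusted p under 0.05 were 0 of 4, and 2 of 14 (Mmp3 and Mmp13) between P6 and P14. Of all probe sets, 416 of 6211 and 865 of 12422 had such a p between P6 and P14.

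At P23 the 95% interval of the log2 difference ran from -0.62 to 0.15 for Mmp14, from -0.53 to 0.86 for Timp1, from -0.55 to 0.33 for Timp2 and from -0.56 to 0.24 for Timp3. At P6, with 5 arrays in each group, Mmp14 had -0.39 to 0.21, Timp3 -0.15 to 0.47, Timp2 -0.18 to 0.50 and Timp1 -0.97 to 0.10. For the bright enzyme and inhibitors a change of the whole-skin signal by a factor of 2 at P23 thus lay outside the interval. These intervals do not bound a change within the basal keratinocytes alone, where the transgene is driven. The dim probe sets were less precise, with Mmp9 (99957_at) at -0.63 to 1.28 and Mmp13 at -1.85 to 1.16 at P23. Among the 4 tested members, the genotypes did not overlap for Timp3 at P23. The DN-CLIM arrays (3019 to 3638) lay below the wild-type arrays (3771 to 3852), a difference of -0.16 (SE 0.19). It did not pass (limma adjusted p = 0.999), while 0.161% of all tested probe sets passed at P23. Of the dim probe sets, Mmp13 at P14 and Timp1 162107_r_at at P23 did not overlap either, and neither passed. With so few arrays in a group, a lack of overlap can arise by chance. Its share among all probe sets was not counted, so it is given as a description and not read as a genotype difference.

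**Figure D4:**
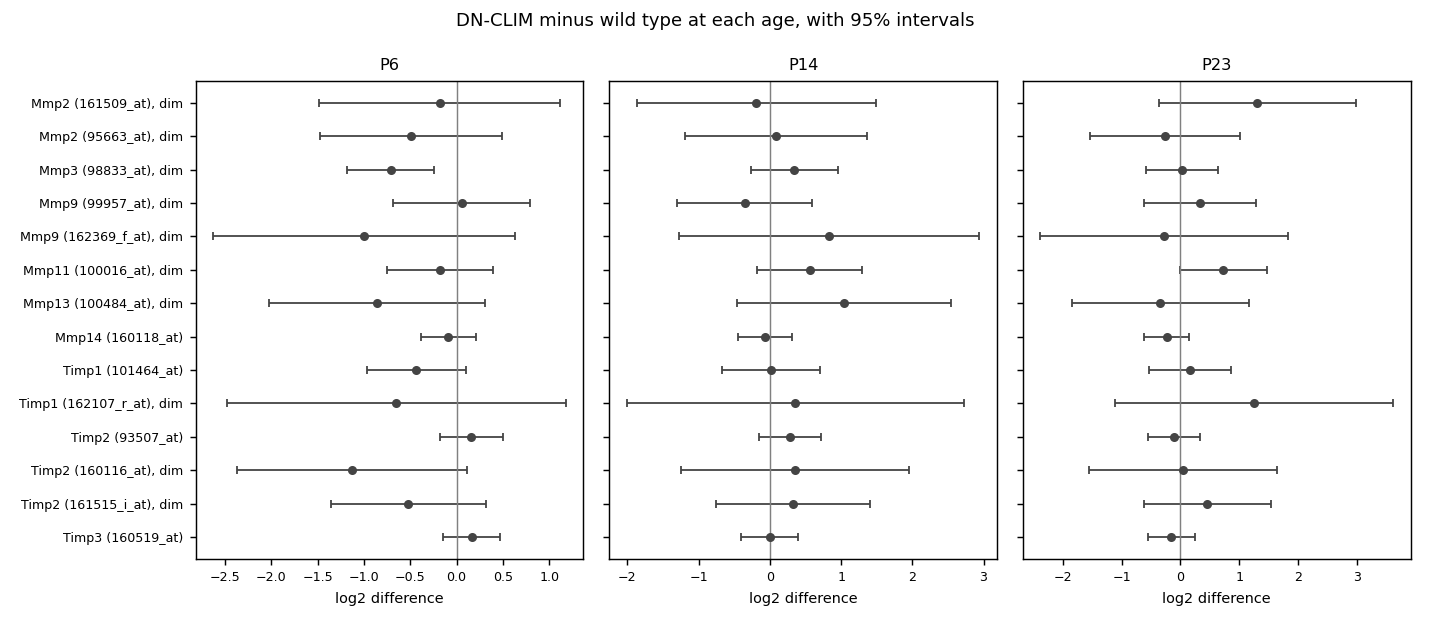
Difference of log2 signal, DN-CLIM minus wild type (x axis, a separate scale in each panel), for the 14 member probe sets (y axis) at P6, P14 and P23, with 95% intervals from limma. All intervals but that of Mmp3 at P6 include 0, and none of the differences passed after adjustment.

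Genes that regulate the MMPs or are cut by them were taken from 6 lists. No gene of these lists passed between genotypes at P6, P14 or P23. The median change of all tested probe sets in the steps below was between -0.01 and 0.00 on the log2 scale. Each list count stands beside the shares of all tested probe sets, which from P14 to P23 were 54.2% changed and 27% higher in wild type and 54.3% and 27.1% in DN-CLIM. Between P14 and P23, Reck, a membrane-anchored MMP inhibitor and the only tested gene of the list of other MMPs and inhibitors, rose by 1.51 (SE 0.25, limma adjusted p = 3.19e-05) in wild type and 1.07 (limma adjusted p = 0.00117) in DN-CLIM. Its log2 signals on the wild-type arrays were 8.81, 8.48 and 8.29 at P14, and the P23 arrays, up to 10.08, all lay above them. Mmp12, the macrophage elastase and a neighbour of Mmp3 on chromosome 9, was dim and was named after its values were seen. Its log2 signals in wild type were 7.05, 6.69 and 5.97 at P14 and 8.63, 8.85 and 8.94 at P23, a rise of 2.23 (SE 0.65, limma adjusted p over all probe sets 0.00948). In DN-CLIM it rose by 3.35 (limma adjusted p over all probe sets 0.000285). The 3 promoters of the chromosome 9 cluster printed above were chosen with these changes known, and Mmp3 and Mmp12 are the ones that rose at telogen. Mmp13, dim at every age, changed by 0.77 (SE 0.72, limma adjusted p over all probe sets 0.449) in wild type and by -0.62 (SE 0.72) in DN-CLIM. Any part of the promoter motifs in these changes was not tested.

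The list for the plasminogen activator system, whose protease plasmin activates proMMPs, had 4 tested genes. Of these, 2 rose from P14 to P23 in wild type and 0 fell (median log2 change 0.27). The larger rise was of Serpinf1, a secreted serpin known as an inhibitor of vessel growth rather than of the plasminogen activators. It rose by 2.71 (SE 0.13, limma adjusted p = 1.07e-13), and had fallen by 0.64 from P6 to P14. Serpinb2, an inhibitor of the plasminogen activators, rose by 0.61 (SE 0.13, limma adjusted p = 0.000329). In DN-CLIM the same count held, with 2.59 and 0.94. Plat, a plasminogen activator, did not pass from P14 to P23 (-0.11, SE 0.15, limma adjusted p = 0.557).

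Among 13 tested genes for activation, binding and clearance of MMPs, 4 rose and 2 fell in wild type from P14 to P23 (median 0.11), near or below the shares of all tested. Cav1, the caveolar protein, rose by 1.96 (SE 0.15), Thbs2, a matricellular protein that binds Mmp2, by 1.49 (SE 0.21), and Lrp1, the endocytic receptor that takes up MMP and TIMP complexes, by 0.79 (SE 0.09). Cldn1, a tight junction protein, fell by 0.90 (SE 0.26), and Bsg, a glycoprotein that induces MMPs in fibroblasts, fell by 0.49 (SE 0.12). Furin, the protease that activates proMmp14, did not pass (0.18, SE 0.10, limma adjusted p = 0.115). Spock2, a matrix proteoglycan, was dim and was named after its values were seen: its wild-type log2 signals were 5.00, 5.15 and 4.90 at P14 and 8.84, 8.76 and 9.12 at P23. In DN-CLIM, 4 of 13 rose and 3 fell.

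Of 6 tested ADAM and ADAMTS genes, relatives of the MMPs that are membrane-bound or secreted, 3 rose in wild type from P14 to P23 (median 0.44): Adam3 by 1.01 (SE 0.38), Adam9 by 0.61 (SE 0.20) and Adam19 by 0.55 (SE 0.20). Each call was lost when certain single arrays were left out, for Adam9 WT P14 replicate 1 or WT P23 replicate 3, for Adam3 WT P14 replicate 2 or 3 or WT P23 replicate 1 or 2, and for Adam19 WT P14 replicate 1 or 3 or WT P23 replicate 1 or 2. Adam3 and Adam19 also lost theirs after quantile normalization. Adam5, Adam10 and Adam23 did not pass.

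Of the AP-1, ETS and cytokine regulators, 3 of 13 were higher and 5 lower in wild type from P14 to P23 (median -0.29), beside 54.2% of all tested changed and 27% higher. Osmr, the receptor of oncostatin M, rose by 1.40 (SE 0.19), Fos by 1.04 (SE 0.27) and Tgfb3 by 0.71 (SE 0.18). Elf3, an ETS factor of epithelium, fell by 1.85 (SE 0.34), Junb by 1.29 (SE 0.16) and Egr1 by 1.14 (SE 0.20). Fos and Junb, both parts of AP-1, thus moved in opposite directions, and Jun itself did not pass (-0.60, SE 0.29, limma adjusted p = 0.0851). In DN-CLIM, 2 of 13 rose and 6 fell, with Fos up by 1.82 (SE 0.27).

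Most matrix substrates of the enzymes fell between P6 and P14, and most rose from P14 to P23 in wild type. From P6 to P14, 12 of 19 tested substrates were lower and 0 higher in each genotype (median log2 change -0.51 in wild type and -0.42 in DN-CLIM). In this step 20.8% of all tested probe sets changed in wild type and 26.8% in DN-CLIM, 9.43% and 12.1% upward. Vcan, the proteoglycan versican, fell by 1.61 (SE 0.16) and Col5a2, a fibrillar collagen chain, by 1.01 (SE 0.15) in wild type. From P14 to P23, 12 of 19 rose and 3 fell in wild type (median 0.53), and 8 rose and 3 fell in DN-CLIM. In wild type Col5a2 rose by 1.40 (SE 0.16), Dcn, the small proteoglycan decorin, by 1.38 (SE 0.11) and Col5a1 by 1.25 (SE 0.11). The 3 that fell were Tnc (-1.15, SE 0.24), Lama5 (-1.03, SE 0.12) and Lamb1 (-0.53, SE 0.16). Of the fibroblast markers, which share Col1a1, Col1a2, Col3a1 and Dcn with this list, 6 of 8 rose in each genotype in the same step. The part of fibroblasts in the list's change was not tested.

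**Figure D5:**
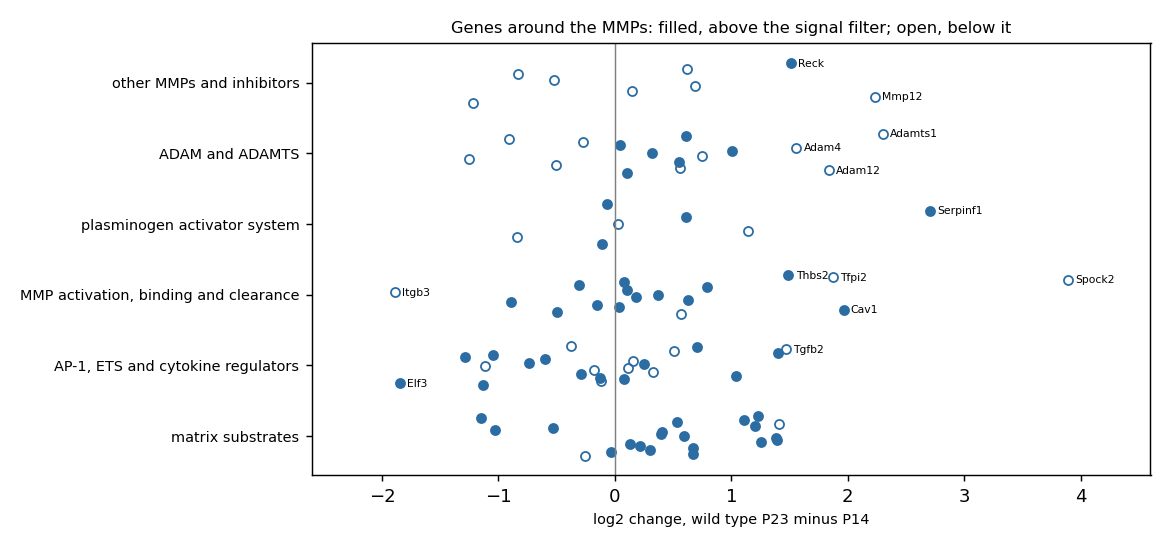
Log2 change from P14 to P23 in wild type (x axis) for each gene of the 6 lists of MMP-related genes (y axis), 1 point per gene. Filled points lie above the signal filter and open points below it, and names are given for the largest changes. Serpinf1, Cav1, Reck and Thbs2 lie furthest to the right among the filled points, and Spock2 (3.89) among the open ones.

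The genes most like each member over the 22 arrays were named by Pearson's r of log2 signal among 5637 tested probe sets of 1 gene. These arrays share 3 ages, so genes that differ between the ages can correlate for that reason alone, and r is given as a description. Timp3 was most like Cd59a (0.94), Herpud1 (0.92) and Osbpl5 (0.90), and Timp2 most like Ank1 (0.92), Gbf1 (0.91) and Arih1 (0.91). Timp1 was most like Cmip (0.88), Nrip1 (0.87) and Fzd4 (0.82), and Mmp14 most like Ybx1 (0.78), Nid2 (0.74), a basement membrane protein, and Syncrip (0.73). Among members, Mmp3 and Mmp9 had r = 0.90, and each had r between 0.78 and 0.84 with Timp2 and Timp3.

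For the dim Mmp3 and Mmp9 the likest genes were looked up after their values were seen. Mmp3 was most like Serping1 (0.97), the inhibitor of complement C1, and Klf9 (0.97). Within ages its r with Serping1 was 0.08 at P6 (n = 10), -0.02 at P14 and 0.11 at P23 (n = 6 each). With Klf9 these were 0.67, 0.38 and 0.42. Mmp9 was most like the muscle genes Actn3 (0.97) and Ckm (0.97), and within P23 its r with them was 0.78 and 0.87 over 6 arrays. At P6 these were 0.31 and 0.67, and at P14 0.80 and -0.29. WT P23 replicate 2 had the lowest log2 signal of the P23 arrays for Mmp9 (6.61), Actn3 (11.98) and Ckm (11.07). The other P23 arrays had at least 7.569 for Mmp9. Both r within P23 may thus rest on that array, and r without it was not computed. Both muscle genes belong to the muscle marker list that rose at P23, and its part in the Mmp9 signal was not tested.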

How the data were processed

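Whole back skin RNA of 22 samples was measured on 1 array each. Per the labels' protocols, RNA was extracted with TRIzol, cleaned with RNeasy, and in vitro transcription added the biotin label. The authors deposited MAS5 signal intensities on a linear scale, 12488 probe sets by 22 arrays. Sources used here give no MAS5 version, and detection calls were not used. The 2% trimmed mean was 500.2 to 500.3 on every array as deposited, so a shift of all RNA cannot be seen.

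Signals were taken to log2 with no offset and no further normalization, and 66 control probe sets were left out. limma 3.58.1 in R 4.3.3 fitted 6 group means with a variance trend, and p-values were adjusted by Benjamini-Hochberg over the 6211 probe sets at or above the median mean signal (threshold 0.05). Dim members were read from a fit of all 12422. There were 13 contrasts, and tests are two-sided. The fit was tested on simulated data.

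By the platform annotation 10855 probe sets name 1 gene each, 396 name several and 1237 name none. Of these, 10839 were found in the RefSeq table (GRCm38.p6) by Entrez ID with 0 symbols changed. Members, lists and alternatives were chosen with earlier results of these data known. All member probe sets are named. Of each list, up to 3 rises and 3 falls past the threshold with the largest change are named for the age comparisons, and for each member above the filter the 3 genes with the highest r. Other list genes (Plat, Furin, Jun, Adam5, Adam10, Adam23, Mmp12 and Spock2) and the likest genes of dim members were named after their values were seen. Same-numbered replicates correlated at -0.05 to 0.25, with 4 of 11 pairs over 0.1, so the numbers were not taken to pair arrays. No 2 arrays were identical.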

Additional observations from a re-analysis of the deposited data

Results flagged for a closer look

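In 28 groups of 5 arrays at P6 (14 probe sets in each genotype), 3 held an array far from the others by Dixon's criterion, and chance gives about 1 in 20. Timp1 (101464_at) had a log2 signal of 7.441 in DN-CLIM P6 replicate 3, below the other 4 arrays of its group. Mmp9 (99957_at) had 5.097 in wild-type P6 replicate 5, above its group. Mmp2 (95663_at) had 4.891 in DN-CLIM P6 replicate 4, above its group.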

How the results depend on the processing

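Of 2050 log2 changes recomputed under an alternative, 1884 kept their direction and their side of the threshold, 110 lost and 21 gained a call, and 35 changed sign, 0 of them called. Of 479 counts, 447 stayed within 1.5 times. Averaged genotype differences, and differences between ages other than those printed for Mmp3 and Timp1, were recomputed as counts only. Values of dim members and of list genes under the alternatives were added after seeing the data, and the split of P6 into replicates 1 to 3 and 4 and 5 was chosen because earlier results of these data showed it; no label names it as a batch. With no filter on low signal the members past the threshold were 1, 4 and 4 in wild type (P14 minus P6, P23 minus P14, P23 minus P6) and 3, 4 and 5 in DN-CLIM, because 14 rather than 4 were tested. For P14 minus P6, where 0 of 4 passed, wild type had 1 under array weights, only the groups compared, the P6 split as a term and P6 replicates 1 to 3 only. In wild type this was Mmp14 with only the groups compared, and Timp3 under the others. DN-CLIM had 1 under array weights, the P6 split as a term, P6 replicates 1 to 3 only and P6 replicates 4 and 5 only. With the replicate block these counts were 1 and 1, the count over all probe sets in DN-CLIM was 5 in place of 3, and the other counts stayed within 1.5 times. Over all probe sets, DN-CLIM had 1 after quantile normalization and 1 with only the groups compared, and wild type had 2 with only the groups compared. Leaving out 1 array gave 0 to 1 members in DN-CLIM P14 minus P6 (1 to 4 over all probe sets), 0 to 3 in P23 minus P14 (2 to 5) and 0 to 1 over all probe sets in wild type P14 minus P6; the low count of P23 minus P14 came without DN-CLIM P14 replicate 2, and 0 in wild type without WT P14 replicate 3.

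All sign changes were of values not past the threshold, and the cause was not tested. After quantile normalization Timp3 DN-CLIM minus wild type at P14 was 0.011, Mmp9 DN-CLIM P14 minus P6 -0.17 and Mmp14 DN-CLIM P23 minus P6 0.012. Under array weights this Mmp14 value was 0.055 and Mmp9 DN-CLIM minus wild type at P6 -0.039. With P6 replicates 1 to 3 only, Mmp14 DN-CLIM P23 minus P6 was 0.11. With P6 replicates 4 and 5 only, Mmp14 DN-CLIM minus wild type at P6 was 0.27, Timp2 wild type P14 minus P6 -0.041, Timp3 DN-CLIM P14 minus P6 -0.041 and Mmp9 DN-CLIM P14 minus P6 -0.15. Leaving out 1 array in turn, DN-CLIM minus wild type ranged at P6 from -0.20 to 0.011 for Mmp14, -0.031 to 0.25 for Timp2 and -0.15 to 0.29 for Mmp9. At P14 it ranged from -0.16 to 0.21 for Timp1 and -0.13 to 0.075 for Timp3, and at P23 from -0.074 to 0.12 for Mmp3, -0.063 to 0.54 for Mmp9 and -0.050 to 0.31 for Timp1. Between ages, Timp2 wild type P14 minus P6 ranged from -0.13 to 0.16, Mmp9 DN-CLIM P14 minus P6 from -0.063 to 0.51, Mmp14 P23 minus P6 from -0.099 to 0.14 in wild type and -0.30 to 0.11 in DN-CLIM, and Timp1 P23 minus P14 from -0.20 to 0.18 in wild type and -0.088 to 0.28 in DN-CLIM. Signals below about 203 carry the widest errors.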
